A study of Rattus norvegicus with 3 samples.

Results

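Replication-dependent histone genes encode the core histones H2A, H2B, H3 and H4 and the linker histone H1 that package newly copied DNA. They were followed in single cortical cells of wild-type rat embryos. The genes were taken by symbol (H1f1 to H1f6, H2ac, H2bc, H3c and H4c with a number, H4f3, and symbols beginning Hist1h, Hist2h or Hist3h), and the rule itself uses no measured value, although the gene set was proposed with earlier results of these data known. The rule found 46 of the 29772 listed genes. One of them, H1f10, was caught only because its symbol begins like that of H1f1. It encodes a linker histone made outside replication, so it was set apart, and sums are over the other 45 genes. By symbol these were 5 H1, 17 H2A, 13 H2B, 4 H3 and 6 H4 genes.

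The cells came from 3 droplet libraries labelled with embryonic days 14, 16 and 18 and called here E14, E16 and E18. Where 3 values follow one another they are in that order. All 3 groups were wild-type, no treatment other than papain dissociation was labelled, and how many embryos were pooled is not given in the sources used here. Each label had 1 library, so nothing below has a replicate check, no p-value is given, and every interval is an exact 95% interval that covers counting error only.

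Histone mRNAs of this kind are made in S phase, when the cyclin E-CDK2 substrate NPAT drives their transcription. Their 3′ ends are cut behind a stem-loop that the protein SLBP binds, and they are not normally polyadenylated. The library kit primes on poly(A), so it reads such transcripts only where they carry a poly(A) tail or an internal run of A, and a level here is not the level of all histone mRNA. Some members are known to give polyadenylated transcripts in cells that have left the cycle. In the embryonic cortex radial glia, which are its stem cells, and their offspring the intermediate progenitors divide, and neurons do not.

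Cells were kept where 1000 or more genes were detected and mitochondrial genes held no more than 10% of UMIs (unique molecular identifiers, 1 per captured transcript), which left 4286, 4977 and 5431 cells with medians of 11193, 12276 and 10475 UMIs. The 45 members held 0.221%, 0.233% and 0.223% of their UMIs. Progenitors are the clusters with radial glia-like or intermediate progenitor-like markers, 816, 3275 and 2631 cells. Postmitotic neurons are the excitatory and Cajal-Retzius-like clusters, 3329, 766 and 1594 cells. In E16 the postmitotic class was made almost wholly of Cajal-Retzius-like cells (765 of 766), most of them in 1 cluster led by Calb1, Calb2 and Lhx9. Of those leading genes only Calb2 was among the markers of that class, so the name is uncertain. In E14 the postmitotic class was made almost wholly of newborn and maturing excitatory neurons. A cluster of 52, 22 and 981 cells led by Ppp1r17, Neurod1 and Nhlh1 had markers of more than 1 class and was left out of both.

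The labels' order did not match that of genes known to change with cortical age. In radial glia the early gene Hmga1 stood at 60.7, 290.3 and 173 CPM (UMIs per 1000000 UMIs of the summed cells) and Ccnd1 at 58, 251 and 40.3 CPM. The late genes Aldoc and Hopx stood at 748, 17.2 and 243 and at 462, 132 and 238 CPM. By Hmga1, Aldoc and Hopx E14 had the latest profile and E16 the earliest, and by Ccnd1 E18 the latest, so every difference between libraries is given by label and not as a change with age. Pairs of libraries shared 17, 13 and 12 barcodes, of which 8, 7 and 7 were kept cells. The protocol text also describes labelling and sorting of live human cells, and which of its steps these rat cells went through is not known.

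The first comparison asked how the members differed between dividing progenitors and postmitotic neurons of the same library. Nearly all members were higher in progenitors, and a single gene, Hist3h2ba, was much higher in neurons. Hist3h2ba encodes an H2B and lies with H2ac25 in the smallest of the histone gene clusters. It stood at 372, 208 and 306 CPM in progenitors and at 1302, 1018 and 981 CPM in postmitotic neurons. Every postmitotic value was above every progenitor value. Its progenitor to postmitotic fold was 0.286 (0.277 to 0.295), 0.204 (0.198 to 0.210) and 0.312 (0.305 to 0.320). Hist3h2ba alone made up 75.7%, 68.9% and 70.9% of the members' UMIs in neurons against 8.95%, 7.57% and 10.8% in progenitors.

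Because of that gene the sum of all 45 members understated the difference. The sum was 4159, 2744 and 2832 CPM in progenitors and 1719, 1477 and 1384 CPM in neurons, a fold of 2.42 (2.39 to 2.45), 1.86 (1.82 to 1.9) and 2.05 (2.02 to 2.08). The other 44 members together stood at 3787, 2536 and 2526 CPM in progenitors and at 417, 459 and 403 CPM in neurons. Their fold was 9.08 (8.92 to 9.24), 5.53 (5.34 to 5.73) and 6.27 (6.12 to 6.43).

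**Figure D1:**
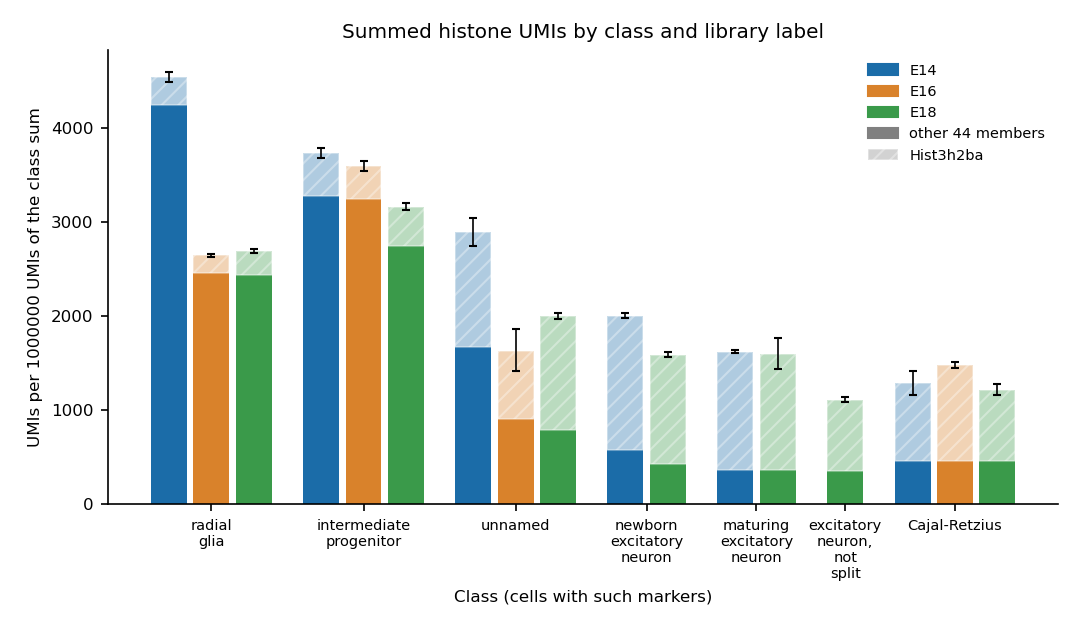
Summed CPM of the 45 members (vertical axis) by class and library label, with solid bars for the other 44 members, hatched bars for Hist3h2ba, and error bars for the exact 95% counting interval of the total. The solid bars are tall in radial glia and intermediate progenitors and short in the neuron classes, where Hist3h2ba makes up most of the total.

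A gene was called where it reached 5 CPM on average over the libraries in at least 1 of the class sums and differed at least 2-fold (1 CPM added) in all 3 libraries. Of the 45 members, 38 reached that level, 34 were called higher in progenitors, 1 lower (Hist3h2ba) and 3 neither (H1f2, H2ac25 and Hist1h2bq). Of all genes that reached it, 11.1% were called higher in progenitors and 8.84% lower. The median log2 fold of these 38 members was 4.04, 3.16 and 3.65 against 0.18, 0.034 and 0.082 over all such genes. The level was reached only in progenitors by 28 of the 38, and passing through the higher class alone favours a call, so that count and that median support nothing by themselves. Of the 10 members at 5 CPM or more in neurons themselves, 6 were called higher, where 5.5% of all genes at 5 CPM or more in neurons were. With no minimum, 39 of the 45 had more CPM in progenitors in all 3 libraries, against 28.5% of all 22955 genes with a UMI in either class. Hist3h2ba and H2ac25 had less in all 3, and H1f6, H2ac18, H2bc1 and Hist1h2bq were mixed.

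Many members are near-identical in sequence, and how the authors' counting split or dropped reads shared between copies is not given in the sources used here, so a value for 1 member may hold reads of another. Single members are therefore uncertain where sums are less so.

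**Figure D2:**
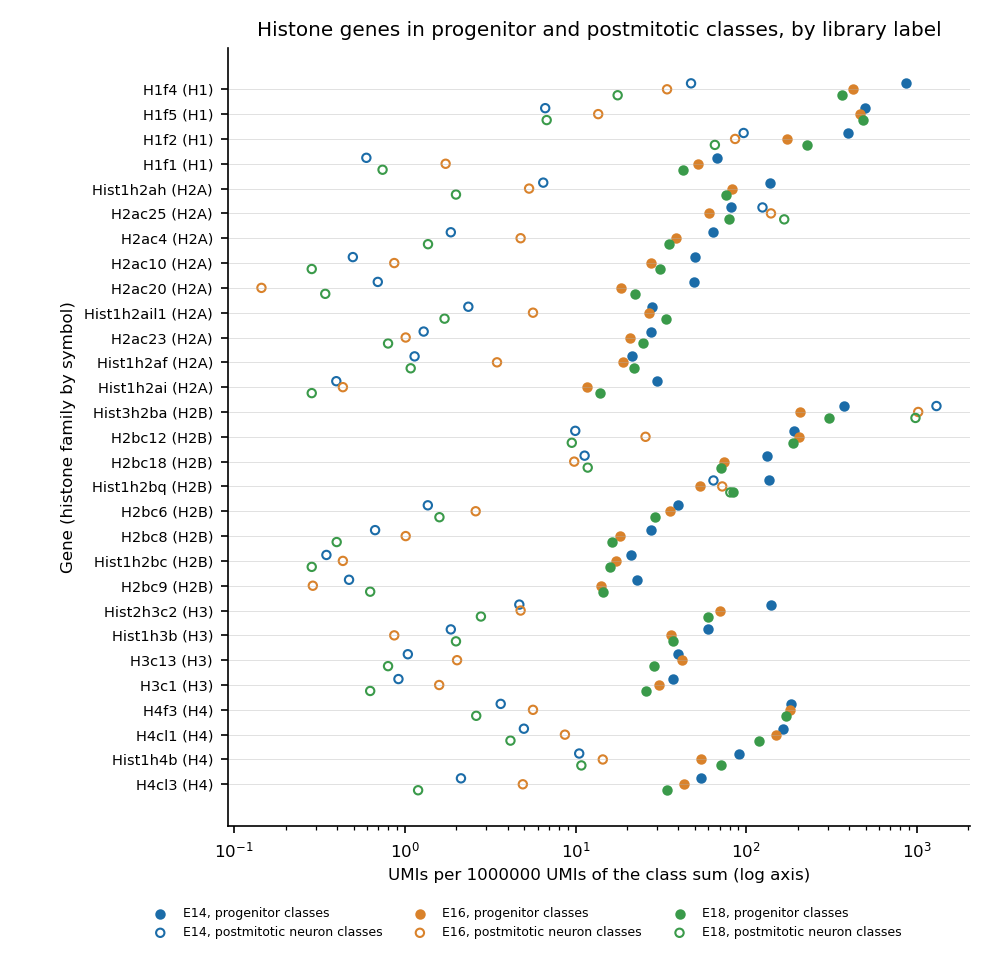
CPM (log axis) of the 29 members that reached 20 CPM in a class sum of any library, 1 row a gene, grouped by family, with filled points for progenitors, open points for postmitotic neurons and colours for library labels. Filled points lie to the right of open points for most genes, the order is turned for Hist3h2ba and H2ac25, and the points of Hist1h2bq mix.

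The members lie in clusters, and their promoters are known to share short motifs. RefSeq's genes include 44 of the 45 symbols, 35 of them on chromosome 17, 7 on chromosome 2 and 2 on chromosome 10. RefSeq's promoter table of build GRCr8, which is not the files' build, held 42. In the 250 bases before each annotated start, on both strands, CCAAT was found in 39 of 42 member promoters and in 34.3% of all 27457 promoters. The CCAAT of H4cl1, 7 bases before its start, lies in bases that read as H3 coding sequence. TATAAA was found in 24 of 42 against 13.1%. The octamer ATTTGCAT was found in 13 of 42, in 7 of 17 H2A and 6 of 12 H2B promoters and in no H1, H3 or H4 promoter, against 1.5% of all. The sequence AAACACA, a known element of H1 genes, was found in 10 of 42 against 6.07%, with 4 of the 5 H1 promoters among them. Motifs were counted separately and may overlap. Members on opposite strands can share these bases, so a single site can count for both promoters. The octamers of H2ac12 and H2bc12 are the same site, as are those of H2ac20 and Hist2h2be and of H2ac1 and H2bc1. Such a match describes letters only.

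The windows below show the 120 bases before the annotated start of 8 members that differ in their values: H1f5, H1f4, H4f3, H2bc12 and H2bc18, which were called higher in progenitors, and Hist1h2bq, Hist3h2ba and H2ac25, which were not called higher in progenitors. They run 5′ to 3′ on the gene's strand, and capitals mark any of these motifs on either strand. In GRCr8 they are chr17:47421755-47421874, plus strand (H1f5), chr17:41914305-41914424, plus strand (H1f4), chr17:41980342-41980461, minus strand (H4f3), chr17:47181941-47182060, minus strand (H2bc12), chr2:186527077-186527196, plus strand (H2bc18), chr17:41869342-41869461, minus strand (Hist1h2bq), chr10:44225301-44225420, plus strand (Hist3h2ba) and chr10:44233163-44233282, plus strand (H2ac25).
H1f5: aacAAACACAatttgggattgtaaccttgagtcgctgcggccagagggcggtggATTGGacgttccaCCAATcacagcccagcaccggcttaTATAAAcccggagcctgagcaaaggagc
H1f4: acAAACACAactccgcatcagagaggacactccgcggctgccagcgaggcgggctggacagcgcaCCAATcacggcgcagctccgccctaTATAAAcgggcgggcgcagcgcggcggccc
H4f3: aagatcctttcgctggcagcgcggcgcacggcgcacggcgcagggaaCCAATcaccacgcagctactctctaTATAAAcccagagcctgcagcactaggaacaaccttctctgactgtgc
H2bc12: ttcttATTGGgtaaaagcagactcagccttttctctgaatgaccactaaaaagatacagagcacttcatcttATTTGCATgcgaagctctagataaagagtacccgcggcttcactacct
H2bc18: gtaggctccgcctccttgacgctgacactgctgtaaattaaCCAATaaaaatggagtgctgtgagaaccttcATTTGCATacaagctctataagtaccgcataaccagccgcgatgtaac
Hist1h2bq: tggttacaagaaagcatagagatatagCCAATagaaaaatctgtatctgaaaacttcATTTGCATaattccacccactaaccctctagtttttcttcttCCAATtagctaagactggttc
Hist3h2ba: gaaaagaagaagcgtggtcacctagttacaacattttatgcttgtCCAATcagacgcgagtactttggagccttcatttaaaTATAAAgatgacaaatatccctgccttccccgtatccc
H2ac25: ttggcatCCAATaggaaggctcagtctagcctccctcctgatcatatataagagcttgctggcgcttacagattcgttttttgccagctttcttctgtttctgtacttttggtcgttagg
In H1f5 and H1f4 AAACACA began 117 and 118 bases before the start and the nearest CCAAT 53 and 55. H4f3 also had AAACACA, 144 bases before its start and so outside the window, and RefSeq lists for it the older name Hist1h1d, that of an H1 gene, so its place among the H4 genes rests on its symbol alone. The octamer began 48 bases before the start of H2bc12 and of H2bc18 and 63 before that of Hist1h2bq. Hist3h2ba had CCAAT and TATAAA, 75 and 38 bases before its start, and no octamer. The window of H2ac25 had CCAAT only, and its octamer lay further off, at 164 bases.

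Linker histones, which bind the DNA between nucleosomes, gave the largest family sum in progenitors. The H1 members summed to 1822, 1109 and 1119 CPM in progenitors and 151, 136 and 90.8 CPM in neurons, a fold of 12, 8.16 and 12.3. H1f4, the most abundant of them in E14, stood at 865, 422 and 364 CPM in progenitors and at 47.5, 34.4 and 17.6 CPM in postmitotic neurons. H1f5 stood at 498, 462 and 484 CPM in progenitors and at 6.64, 13.6 and 6.77 CPM in postmitotic neurons. H1f5 hardly differed between libraries in progenitors, while H1f4 was about 2 times higher in E14 than in the others. The folds of H1f5 were 75 (66.3 to 85.1), 34 (27.8 to 42.1) and 71.5 (59.7 to 86.4). In E16 its neuron level lay within counting error of the 15 (11.5 to 19.3) CPM of erythroid-like cells of the same library, so free RNA in the droplets and expression in neurons cannot be told apart at that level.

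H1f2 had the smallest folds of the named H1 genes. It stood at 393, 173 and 227 CPM in progenitors and at 96.6, 86.1 and 65.5 CPM in postmitotic neurons. Its folds of 4.07 (3.89 to 4.25), 2.01 (1.85 to 2.18) and 3.47 (3.26 to 3.69) left E16 just short of 2 once 1 CPM was added, so it was called neither way. H1f1 was at 67, 52.1 and 42.5 CPM in progenitors and at 0.595, 1.73 and 0.740 CPM in postmitotic neurons, where its neuron counts were 24, 12 and 13 UMIs. Its gene model in GRCr8 spans 32599 bases, so it may hold reads of other transcripts. H1f6, a testis linker histone, had at most 5 UMIs in any library's progenitors or neurons and was not tested.

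The H2A members summed to 537, 344 and 378 CPM in progenitors and 142, 165 and 178 CPM in neurons. Of 12 tested, 11 were called higher, against 11.1% of all genes. All 11 were under 5 CPM in neurons on average and so tested through progenitors only, which favours a call. H2ac25 was the exception. It stood at 81.7, 60.6 and 79.7 CPM in progenitors and at 125, 139.6 and 167 CPM in postmitotic neurons, with every neuron value above every progenitor value. Its folds were 0.656 (0.610 to 0.705), 0.434 (0.404 to 0.467) and 0.477 (0.453 to 0.503), and it missed the call only through E14, without which it counted as lower. The most abundant of those called, Hist1h2ah, stood at 139, 82.7 and 76.4 CPM in progenitors and at 6.47, 5.34 and 1.99 CPM in postmitotic neurons. H2ac4 stood at 64.1, 39 and 35.1 CPM in progenitors and at 1.86, 4.77 and 1.37 CPM in postmitotic neurons. The remaining 6 named H2A genes had higher values in progenitors than in neurons in every library.

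Among these, H2ac10 was at 50.4, 27.8 and 31.3 CPM in progenitors and 0.496, 0.866 and 0.285 in neurons. H2ac20 was at 49.5, 18.5 and 22.3 CPM against 0.694, 0.144 and 0.342, where the E16 neuron value is 1 UMI. Both had their highest progenitor value in E14. Hist1h2ail1 was at 27.9, 26.8 and 34 CPM against 2.35, 5.63 and 1.71, and H2ac23 at 27.7, 20.8 and 25 against 1.29, 1.01 and 0.797. Hist1h2af was at 21.6, 19.1 and 22.1 CPM against 1.14, 3.47 and 1.08, and Hist1h2ai at 29.9, 11.7 and 13.9 against 0.396, 0.433 and 0.285. In E16 the neuron values of Hist1h2ail1 and Hist1h2af were more than 2 times those of the other libraries.

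Of the H2B members, 12 were tested, of which 10 were called higher and Hist3h2ba lower, where 11.1% of all genes were called higher and 8.84% lower. Of the 4 at 5 CPM or more in neurons 2 were called higher, against 5.5% of all genes at that level there. Without Hist3h2ba the family summed to 633, 461 and 466 CPM in progenitors and 91.9, 115 and 108 CPM in neurons. H2bc12 stood at 189, 204 and 187 CPM in progenitors and at 9.96, 25.7 and 9.51 CPM in postmitotic neurons. H2bc18 stood at 132, 74.6 and 70.8 CPM in progenitors and at 11.3, 9.82 and 11.8 CPM in postmitotic neurons. These were the members called higher in this family that averaged at least 5 CPM in neurons. H2bc6 stood at 39.8, 35.7 and 29.3 CPM in progenitors and 1.36, 2.6 and 1.59 in neurons. H2bc8 stood at 27.8, 18.3 and 16.4 against 0.669, 1.01 and 0.398. The last named pair was lower still. Hist1h2bc stood at 21.3, 17.3 and 15.8 against 0.347, 0.433 and 0.285, and H2bc9 at 23, 14.1 and 14.4 against 0.471, 0.289 and 0.626, with 2 to 19 UMIs behind each neuron value. The gene model of H2bc9 in GRCr8 spans 7998 bases, so it may hold reads of other transcripts.

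Hist1h2bq, also an H2B gene by symbol, behaved differently in each library. It stood at 137, 53.3 and 83.2 CPM in progenitors and at 64.3, 72.3 and 80.7 CPM in postmitotic neurons. Progenitors were above neurons in E14, below them in E16 and level with them in E18, with folds of 2.13 (1.99 to 2.27), 0.737 (0.670 to 0.813) and 1.03 (0.968 to 1.1). Its gene model in GRCr8 spans 9935 bases, so reads of other transcripts could be counted for it.

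The H3 and H4 members were higher in progenitors as sums. All 4 H3 and all 6 H4 members were called higher, against 11.1% of all genes. Of these only H4cl1 and Hist1h4b reached 5 CPM in neurons, where 5.5% of all genes at that level were called higher. For the others passing the minimum through progenitors alone favours the call. The H3 genes summed to 277, 179 and 151 CPM in progenitors and 8.5, 9.24 and 6.2 CPM in neurons, the highest fold of any family, 32.6 (29.2 to 36.6), 19.4 (15.2 to 25.2) and 24.4 (20.2 to 29.8). Hist2h3c2 stood at 140.4, 70.2 and 59.8 CPM in progenitors and at 4.68, 4.77 and 2.79 CPM in postmitotic neurons. Hist1h3b stood at 60.1, 36.1 and 37 CPM in progenitors and 1.86, 0.866 and 1.99 in neurons. H3c13 and H3c1 were close to each other. H3c13 stood at 39.7, 41.9 and 28.7 against 1.04, 2.02 and 0.797, and H3c1 at 37.3, 30.7 and 25.8 against 0.917, 1.59 and 0.626.

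The H4 genes summed to 517, 444 and 412 CPM in progenitors and 23.4, 34.2 and 19.8 CPM in neurons. Without H4f3, whose family rests on its symbol, they summed to 334, 262 and 241 CPM against 19.8, 28.6 and 17.2. The folds were then 16.9, 9.17 and 14. H4f3 stood at 183, 181 and 170.1 CPM in progenitors and at 3.64, 5.63 and 2.62 CPM in postmitotic neurons. It differed little between libraries in progenitors. H4cl1 stood at 163, 149 and 118 CPM in progenitors and at 4.98, 8.66 and 4.16 CPM in postmitotic neurons, and H4cl3 at 54, 43.4 and 34.2 CPM against 2.13, 4.91 and 1.2. The gene models of H4cl1 and H4cl3 in GRCr8 span 63790 and 24545 bases. Within that of H4cl1 lie Hist1h2ah on the same strand and Hist1h2af, H1f2 and H1f6 on the other, and its end overlaps Hist1h2bq. Within that of H4cl3 lies Hist1h2bd on the same strand. Both may therefore hold reads of other transcripts. The 120 bases before the annotated start of H4cl1 read as H3 coding sequence, so its place among the H4 genes rests on its symbol. Hist1h4b stood at 90.8, 54.6 and 71.6 CPM in progenitors and at 10.5, 14.4 and 10.8 CPM in postmitotic neurons, with smaller folds than the other named H4 genes, 8.64, 3.78 and 6.62.

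The 9 members that were tested but stayed under 20 CPM (Hist1h2ac, Hist1h2an, Hist1h2ao, Hist1h2bd, Hist1h2bg, Hist1h2bo, Hist2h2be, Hist1h4m and Hist2h4) ranged from 3.39 to 18.1 CPM in progenitors and reached at most 2.48 CPM in neurons. The 7 not tested (H2ac1, H2ac12, H2ac18, H2ac21, H2bc1, Hist2h2aa2 and H1f6) did not exceed 4.49 CPM in progenitors. H2ac1, H2bc1 and H1f6 are known as testis histones.

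H1f10, set apart, stood at 753, 578 and 684 CPM in progenitors and at 261, 228 and 221 CPM in postmitotic neurons. Its folds were 2.88, 2.53 and 3.1. Of 11 replication-independent histones, H1f10 among them, 6 were called higher (H2az1, H2az2, H2ax, H1f0, H1f10 and Cenpa) and none lower, against 11.1% and 8.84% of all genes. H2az1, an H2A.Z gene, was at 3196, 4574 and 3754 CPM in progenitors and 657, 1058 and 667 in neurons. The H3.3 genes H3f3b and H3f3a were called neither way, at 3219, 2497 and 2641 CPM against 3225, 3372 and 2466 and at 1318, 1349 and 1258 against 1683, 1959 and 1646.

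Within the neuron classes Hist3h2ba was high in each. In newborn excitatory neurons it stood at 1432 (1409.7 to 1455) CPM in E14 and 1159 (1138 to 1181) in E18. Maturing neurons had 1259.7 (1247 to 1273) in E14, and the E18 neurons that markers did not split had 754 (733 to 776). Cajal-Retzius-like cells had 829.6, 1018 and 757 and GABAergic-lineage cells 1007, 877 and 1269 CPM. Among progenitors, the intermediate progenitor sums stood above those of radial glia, at 459.9, 356 and 423 against 294, 190.4 and 258 CPM. The order was not shared by all intermediate progenitors: their cluster with the fewest G2/M transcripts had 382, 129 and 145 CPM, below radial glia in E16 and E18, and the cluster with the most had 881, 603 and 781. H2ac25, of the same gene cluster as Hist3h2ba, was also higher in newborn neurons than in radial glia, with 168 (161 to 176) CPM in E14 and 181 (172 to 189.6) in E18. Its radial glia had 67.8, 59 and 77.1 CPM.

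The unnamed cluster had 1222, 728 and 1213 CPM, in or near the range of the neuron classes. Non-neuronal classes had less. Hem or patterning progenitor-like cells had 125 (116 to 136) CPM in E16 and 234 (195 to 279) in E18. Choroid plexus-like cells had 136 (123 to 150.1) CPM in E16 and 82.6 (69.4 to 97.7) in E18. Erythroid-like cells of E16 had 3.45 (1.89 to 5.79) CPM and meningeal fibroblast-like cells 20.5 (13.4 to 30.1). With each cell thinned to 2000 UMIs, 90.3% (89.3 to 91.3), 77.8% (74.7 to 80.7) and 83.7% (81.8 to 85.5) of postmitotic neurons had a Hist3h2ba UMI. In progenitors the shares were 49.3% (45.8 to 52.8), 32.7% (31.1 to 34.4) and 40.0% (38.2 to 42). In the erythroid-like cells of E16, taken as a gauge of free RNA, the share was 0.813% (0.0206 to 4.45), and in the meningeal cells 4.3% (1.18 to 10.7). Unthinned shares were 99.5%, 96.5% and 98.6% of neurons, 90.0%, 85.4% and 84.8% of progenitors and 8.13% of the erythroid-like cells. Median depths were 11065, 8524 and 9998 UMIs in neurons and 32368 in the erythroid-like cells.

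When cells were split by cell cycle transcripts alone, with no clustering, Hist3h2ba was at 741, 211 and 389 CPM in cells with at least 4 UMIs of S phase or G2/M genes and 1246, 1147 and 1032 CPM in cells with at most 1 of these and at least 4 UMIs of neuron markers. The folds were 0.594, 0.184 and 0.377, so that E14 fell short of 2-fold and the call was lost. In that library 450 of the 1072 cells so counted as cycling belonged to postmitotic clusters.

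The second comparison set the members against S phase transcripts in the same progenitor cell. Each cell was thinned to 2000 UMIs, and the UMIs of 50 S phase genes (replication factors such as Pcna, Lig1 and Prim1, with no histone gene) and of 42 G2/M genes (such as Top2a, Cenpf and Ube2c) were counted. The members were highest in cells that had both kinds of transcript. Cells with S phase transcripts and hardly any G2/M transcripts held far fewer. S-high cells had at least 4 S phase UMIs and at least 2 times as many as G2/M UMIs, G2/M-high cells the reverse, and low cells at most 1 of each.

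The other 44 members stood at 752, 555 and 572 CPM in low cells, 2758, 1819 and 1554 in S-high cells and 4565, 2426 and 2887 in G2/M-high cells. In all 3 libraries the order was low, S-high, G2/M-high. The fold of S-high over low was 3.67 (3.44 to 3.91), 3.28 (2.64 to 4.13) and 2.72 (2.48 to 2.98), and that of S-high over G2/M-high was 0.604 (0.588 to 0.621), 0.750 (0.739 to 0.761) and 0.538 (0.529 to 0.548). The low group held 142, 15 and 91 cells, so its E16 values are thin. Hist3h2ba did not follow that order, at 347, 164 and 215 CPM in low, 246, 155 and 184 in S-high and 463, 252 and 417 in G2/M-high cells. Its fold of S-high over low was 0.707 (0.630 to 0.794), 0.945 (0.634 to 1.48) and 0.858 (0.737 to 1.0), within counting error of 1 in E16 and E18, and that of S-high over G2/M-high was 0.530 (0.484 to 0.581), 0.617 (0.588 to 0.648) and 0.442 (0.421 to 0.464). Median depth was 10098, 9818 and 8455 UMIs in low, 12546, 12014 and 11432 in S-high and 16218, 16182 and 14694 in G2/M-high cells, and its part in the CPM values was not tested.

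Of 37 members tested, 27 were at least 2-fold higher in S-high than in low cells in all 3 libraries, against 4.23% of all genes. Members near 0 in low cells were tested through S-high cells only, which favours a call. Of the 14 at 5 CPM or more in low cells, 8 were called, against 1.95% of all genes at that level there. S-high cells could hold some G2/M transcripts as well. Of 38 tested, none was 2-fold higher in S-high than in G2/M-high cells, against 0.498% of all genes. H1f5 was at 22, 13.7 and 14.5 CPM in low, 382, 333 and 294 in S-high and 537, 391 and 487 in G2/M-high cells. H1f4 was at 113, 27.4 and 51.9 CPM in low, 699, 325 and 241 in S-high and 999, 381 and 401 in G2/M-high cells. Both were lowest in low cells and highest in G2/M-high cells in every library. The contrast between S-high and low depended on the S phase list. With 10 S phase genes (among them Pcna, Mcm6 and Mcm7) and the minimum of 4 UMIs kept, the log2 ratio of all 45 members was 0.13, 0.85 and 0.37 in place of 1.45, 1.46 and 1.14. With the minimum lowered to 2 UMIs as well it was 0.12, 0.74 and 0.24.

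A finer split, chosen after these values had been seen, separated S phase transcripts without G2/M transcripts from the 2 together. Cells with at least 6 S phase UMIs and at most 1 G2/M UMI (69, 356 and 396 cells) held a mean of 1.58 (1.3 to 1.91), 1.6 (1.47 to 1.74) and 1.26 (1.15 to 1.37) UMIs of the other 44 members. Cells with at least 6 S phase and at least 8 G2/M UMIs (195, 1418 and 920 cells) held 17.4 (16.9 to 18), 7.15 (7.01 to 7.29) and 8.71 (8.52 to 8.9). Cells with few transcripts of either list held 1.55, 1.32 and 1.21 UMIs at up to 2 S phase and 1 G2/M UMIs. The intervals of E14 and E18 with S phase transcripts only include those values. In unthinned sums all 45 members had folds of 1.01 (0.929 to 1.1), 1.36 (1.12 to 1.67) and 1.05 (0.970 to 1.15) between cells with S phase transcripts only and low cells, within counting error of 1 in E14 and E18. The other 44 had folds of 1.17 (1.06 to 1.28), 1.48 (1.19 to 1.87) and 1.16 (1.05 to 1.28). The members differed in this. H1f4 had folds of 2.29 (1.86 to 2.82), 5.14 (2.0 to 18.9) and 1.85 (1.35 to 2.59) and the H3 sum of 2.92 (1.56 to 5.61), 2.42 (0.817 to 11.8) and 3.47 (1.64 to 8.8). H1f2 was lower instead, with folds of 0.622 (0.499 to 0.770), 0.476 (0.302 to 0.791) and 0.676 (0.549 to 0.838), and the H2A sum had 0.629 (0.475 to 0.823), 0.840 (0.538 to 1.39) and 0.895 (0.713 to 1.13). H1f5 had 1.59 (0.927 to 2.72), 7.32 (2.01 to 60.6) and 3.44 (1.93 to 6.75), where the E16 value rests on 2 UMIs in low cells. Mean S phase UMIs of the 2 strata were close, 10.6, 12.9 and 12 and 12.6, 10.5 and 11.9. Median depths before thinning were 12057, 11254 and 10976 and 14899, 14969.5 and 14134 UMIs.

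**Figure D3:**
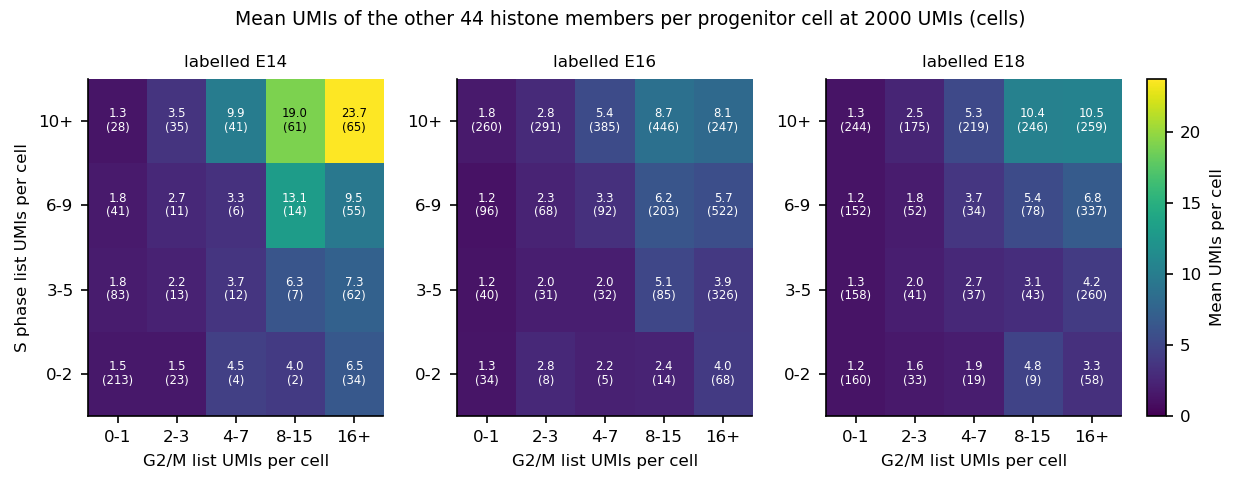
Mean UMIs of the other 44 members per progenitor cell thinned to 2000 UMIs, by S phase list UMIs (vertical) and G2/M list UMIs (horizontal), 1 panel a library label, with the number of cells in brackets. At 0 to 1 G2/M UMIs the mean stays between 1.18 and 1.83 at every S phase level, and it is highest in cells with 10 or more S phase UMIs and at least 8 G2/M UMIs.

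The same held within radial glia, where means were 1.84, 1.64 and 1.33 against 18.6, 6.86 and 8.27, and within intermediate progenitors, 1.26, 1.22 and 1.06 against 16.3, 8.85 and 9.5. Among cells with 16 or more G2/M UMIs, means were higher at more S phase UMIs too, 6.53, 3.98 and 3.28 at up to 2 and 23.7, 8.08 and 10.5 at 10 or more. Over single cells the rank correlation of the other 44 was 0.458, 0.156 and 0.292 with S phase UMIs and 0.533, 0.268 and 0.488 with G2/M UMIs. These describe 810, 3253 and 2614 cells of 3 libraries and are weak in sparse counts.

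By gene, 34 of 39 members tested were at least 2-fold higher with both lists than with S phase transcripts only, against 2.47% of all genes, and their median fold was 14.3, 4.39 and 6.46 against 0.984, 1.05 and 1.02 over all genes. Of the 22 members at 5 CPM or more with S phase transcripts only, 17 passed, against 1.7% of all genes at that level there. The remaining 17 tested members passed the minimum through the other group only, which favours a call and raises the median. How the strata were built favours what the cell cycle lists gave, 42 of 42 G2/M genes passing and none of the 50 S phase genes. Of 11 replication-independent histones 4 passed, among them Cenpa, which is also in the G2/M list. H1f5 stood at 35, 100.3 and 49.8 CPM with S phase transcripts only and 1267, 659 and 920.2 with both. H2bc18 stood at 18.7, 9.67 and 10.6 and 322, 107 and 131 CPM. H1f4 stood at 259, 141 and 95.9 and 2006, 574 and 626 CPM. In each of the 3 genes the groups were far apart in every library, and the E14 value with both lists was the highest.

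**Figure D4:**
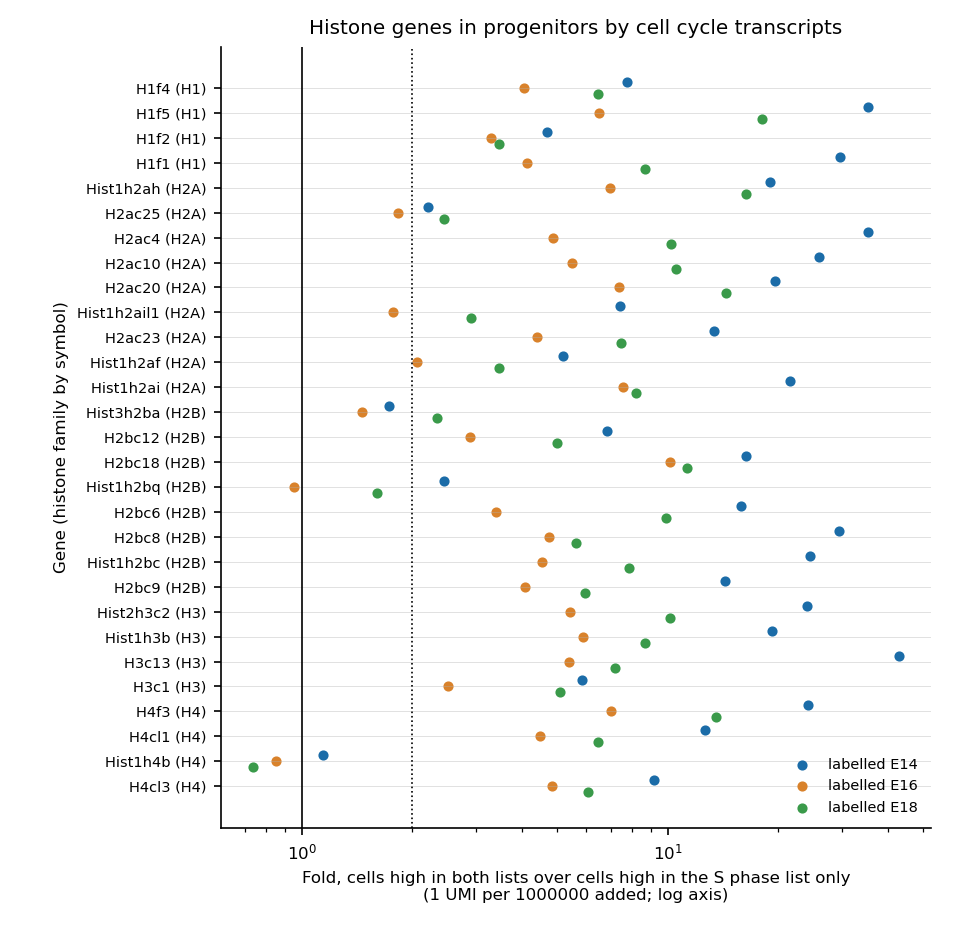
Fold of each of the 29 named members (log axis, 1 CPM added) between progenitors high in both lists and progenitors high in the S phase list only, coloured by library label, with lines at 1 and 2. Most genes lie beyond 2 in all 3 libraries, and Hist1h4b lies around 1.

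The 5 members tested that did not pass were Hist3h2ba, H2ac25, Hist1h2bq, Hist1h2ail1 and Hist1h4b. Hist3h2ba had folds of 1.73, 1.46 and 2.35 and H2ac25 of 2.22, 1.84 and 2.45. Hist1h2ail1 had 7.39, 1.77 and 2.91 and Hist1h2bq 2.45, 0.955 and 1.6. Hist1h4b stood out among genes called higher in progenitors: its level did not follow cell cycle transcripts in 1 direction, at 63.2, 68.5 and 78.5 CPM in low, 71, 56.8 and 63.3 in S-high and 106, 44.7 and 70.1 in G2/M-high cells. Its fold of G2/M-high over low was 1.68 (1.34 to 2.13), 0.653 (0.353 to 1.37) and 0.894 (0.695 to 1.17), above 1 in E14 and within counting error of 1 in E16 and E18. Its folds between the strata were 1.15, 0.853 and 0.737. It was higher in radial glia than in intermediate progenitors, 133, 56.2 and 88.1 against 43.6, 41.2 and 32.2 CPM. Its model in GRCr8 spans 4445 bases and RefSeq lists its symbol also as an older name of Hist1h4m, so which copy it stands for is uncertain. H1f2 had 231, 137 and 138 CPM in low and 307, 132 and 153 in S-high cells, and folds of 4.67, 3.29 and 3.47 between the strata.

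The third comparison was between library labels within radial glia, 393, 2854 and 1778 cells. The members summed to 4540.4 (4485 to 4596), 2645 (2629.6 to 2659.9) and 2694 (2674 to 2714) CPM, so E14 stood well above E16 and E18, which were close. E16 over E14 was 0.582 (0.575 to 0.590), E18 over E14 0.593 (0.585 to 0.602) and E18 over E16 1.02 (1.01 to 1.03). The last changed direction under 3 of 9 other settings. Radial glia of E14 came almost wholly from 1 cluster, and those of E16 and E18 from others.

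Of 40 members tested, 13 were at least 2-fold lower in E16 than in E14 and none higher, where 8.45% of all genes were lower and 2.85% higher. Between E18 and E14, 10 of 40 were lower and none higher, against 3.93% and 1.23%. Between E18 and E16 none of 37 was higher or lower, against 2.3% and 0.824%. The 2 contrasts with E14 share its cells. Of the 37 members at 5 CPM or more in E16 itself 11 were lower, against 5.15% of all genes at that level there, and of the 37 in E18 itself 8 were, against 2.24%. The median log2 ratio of the members was -0.73, -0.75 and 0.018 in these 3 contrasts, against -0.13, -0.062 and 0.074 over all genes tested. With the looser cell filter the 13 became 7 and 2 members were higher in E18 than in E16, and with the stricter one the 10 became 6.

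H1f4 stood at 1018 (992 to 1045), 408 (402 to 414) and 366 (359 to 374) CPM in radial glia. Hist2h3c2 stood at 164 (154 to 175), 68.4 (66 to 70.9) and 59.2 (56.2 to 62.3). H2ac20 stood at 60.2 (53.9 to 66.9), 18.8 (17.6 to 20.2) and 25.5 (23.6 to 27.6). In these 3 genes E14 was more than 2 times higher than either other library, and intervals did not overlap. H2bc18 showed the same, at 140.5 (131 to 151), 69.7 (67.3 to 72.2) and 65.7 (62.6 to 68.9). By contrast H2bc12 stood at 200.1 (189 to 212), 197 (193 to 201) and 169 (163 to 174) and H4f3 at 204 (192 to 216), 177 (173 to 181) and 168 (163 to 173), so that E14 and E16 were less than 1.2-fold apart. H1f5, at 529.9 (511 to 549), 443 (437 to 449.7) and 434 (425 to 442), was also called in no contrast.

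**Figure D5:**
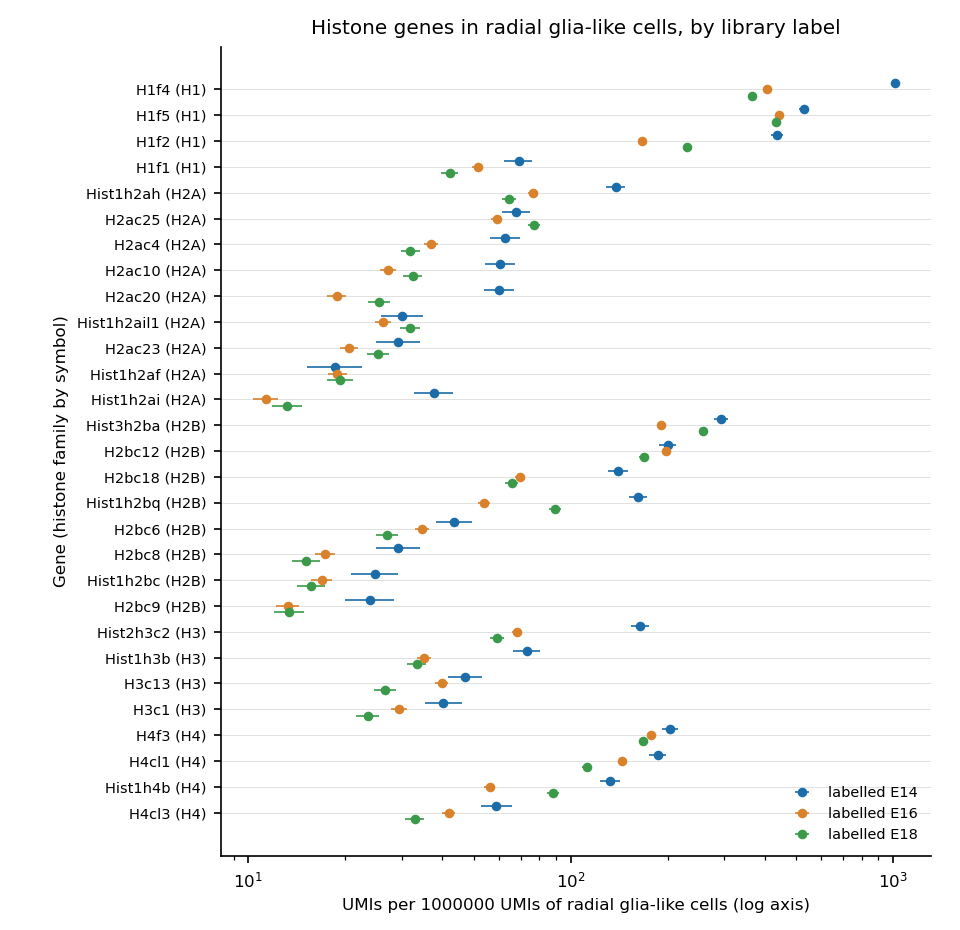
CPM (log axis) of the 29 named members in radial glia-like cells, 1 row a gene, coloured by library label, with exact 95% counting intervals. E14 lies to the right for most genes, by over 2-fold for H1f4, Hist2h3c2 and H2ac20 and by little for H2bc12 and H4f3.

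The S phase sum did not run the way of the members, whereas the G2/M sum was highest in E14 as theirs was, with smaller differences. The members' sums in E16 and E18 were close, and without Hist3h2ba they were 2454 and 2436 CPM in radial glia. Summed S phase genes stood at 3931, 5130.0 and 4903 CPM in radial glia, lowest in E14, and G2/M genes at 7813, 7475 and 7594 CPM. The 11 replication-independent histones summed to 11911, 11996 and 11692 CPM, within 3% of each other. In the open-ended range of at least 6 S phase and at least 8 G2/M UMIs the difference was larger. Radial glia there (98, 1207 and 595 cells) held 18.6 (17.8 to 19.5), 6.86 (6.71 to 7.0) and 8.27 (8.04 to 8.51) UMIs of the other 44 members per 2000. Their mean S phase UMIs were 11.29, 10.25 and 10.83 and their mean G2/M UMIs 22.95, 19.63 and 21.95. Both means were highest in E14, and the part of that was not tested. Radial glia with S phase transcripts only (38, 320 and 291 cells) held 1.84 (1.44 to 2.33), 1.64 (1.51 to 1.79) and 1.33 (1.2 to 1.47), much closer to each other.

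In intermediate progenitors, 423, 421 and 853 cells, the members summed to 3733 (3679.8 to 3786), 3598 (3547 to 3651) and 3163 (3129 to 3198) CPM. E16 over E14 was 0.964 and E18 over E14 0.847, closer to 1 than in radial glia. The clusters behind the class differed: the one with the fewest G2/M transcripts held 269, 29 and 324 of its cells. In the one with the most S phase transcripts, of 108, 286 and 400 cells, the other 44 stood at 8360.0, 4175 and 4607 CPM, with E14 well above the others. The class ratios also rest on the cell filter. With the stricter one the log2 ratios were -1.34 for E16 over E14, -0.998 for E18 over E14 and 0.34 for E18 over E16, in place of -0.053, -0.24 and -0.19, while radial glia gave -0.77, -0.66 and 0.11. Among cells with at least 6 S phase and 8 G2/M UMIs (97, 211 and 325 cells) E14 stood above the others, with 16.3 (15.5 to 17.1), 8.85 (8.46 to 9.26) and 9.5 (9.17 to 9.84) UMIs of the other 44 members. In newborn neurons, which E16 lacked, the sum was 2005 CPM in E14 and 1589 in E18, a ratio of 0.793 (0.776 to 0.809). H1 members differed most there, with a ratio of 0.399, and H2A members had a ratio of 1.01 (0.947 to 1.07).

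Against the 11.1% of all genes higher and 8.84% lower in progenitors, of the S phase list 46 of 50 were called higher in progenitors, of the G2/M list 42 of 42, and none lower. Of 18 genes of histone mRNA transcription and 3′ processing, 4 were called higher (Slbp, Cdk2, Cstf2 and Eri1), and none lower. Slbp, the stem-loop binding protein, stood at 122, 151 and 143 CPM in progenitors and 33.7, 38.7 and 31.9 CPM in neurons. The cleavage factor Cpsf2 was at 110.3, 132 and 147 against 67.8, 69.9 and 81.3 and the polyadenylation factor Fip1l1 at 96.6, 95.8 and 113 against 70.8, 92 and 87.9, and neither was called. Of 22 histone chaperones 11 were called higher and none lower. Nasp, which binds H3 and H4, stood at 769.7, 1330.0 and 1283 CPM against 269, 402 and 328, while Npm1 at 1723, 2726 and 2019 against 1157, 1448 and 1263 and Nap1l1 at 880.4, 1526 and 1358 against 412, 812 and 664 were not called.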

How the data were processed

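Single-cell RNA was measured in 1 library for each of 3 labels, with 62740631, 80974234 and 73727823 UMIs in all. The deposited matrices hold whole-number UMI counts per gene and cell barcode, made with Cell Ranger 6.0.1 per the file headers, on build mRatBN7.2 per the submitters' processing notes. The annotation, strand setting and treatment of reads shared by several genes are not given in the sources used here. The members and all lists were chosen with earlier results of these data known.

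Samples were grouped by their labelled embryonic day. Cells with at least 1000 genes and at most 10% mitochondrial UMIs were kept. Predicted doublets were removed at 0.8% per 1000 barcodes (158, 216 and 259 cells). Cells were clustered (scanpy 1.11.5; 2000 variable genes without members or cell cycle genes, 30 components, 15 neighbours, Leiden resolution 1) into 28 clusters, of which 1 stayed unnamed, and named from marker lists. Raw counts were then summed by class and library and divided by the summed UMIs to give CPM. Intervals were exact Poisson (levels), exact conditional (ratios) and exact Clopper-Pearson (shares), computed with scipy 1.17.1. Thinning to 2000 UMIs left out cells below that depth. Members at 20 CPM or more in a class sum of any library are named with every value, of each other list the 3 most abundant genes, and of the stage lists 2. The finer cell cycle strata and their gene counts were chosen after seeing values. The call of genes was checked on simulated counts. Alternatives covered the cell filter, doublets, clustering, a marker gate, the CPM minimum, the added CPM, the cell cycle minimum, the thinning depth and the S phase list.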

Additional observations from a re-analysis of the deposited data

Results flagged for a closer look

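Hist1h2bq moved in opposite directions between libraries under the same comparison: its progenitor over postmitotic fold was 2.13 in E14, 0.737 in E16 and 1.03 in E18. With 1 library a label, this difference was not tested. The postmitotic cells of E16 were Cajal-Retzius-like and those of E14 excitatory neurons, and the part of that in the result was not tested.

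The members were also read in data the comparisons did not use. Barcodes that failed the cell filter (2656, 1514 and 1247 of them) held the 45 members at 1499 CPM in E14, 1225 in E16 and 1355 in E18, far above the 0.476, 0.742 and 0.969 CPM that 3 counts make in those sums. Hist3h2ba alone stood at 712, 176 and 285 CPM there.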

How the results depend on the processing

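Sums are given here as log2 ratios of all 45 members, and a value is listed where it lay outside the counting interval of the reported one or changed direction. The reported progenitor over postmitotic ratios were 1.27 (E14), 0.89 (E16) and 1.03 (E18). The reported radial glia ratios were -0.78 (E16 over E14), -0.75 (E18 over E14) and 0.027 (E18 over E16). The reported intermediate progenitor ratios were -0.053 (E16 over E14), -0.24 (E18 over E14) and -0.19 (E18 over E16). The reported newborn neuron ratio was -0.34 (E18 over E14). The reported S-high over low ratios were 1.45 (E14), 1.46 (E16) and 1.14 (E18). With at least 2000 genes and at most 5% mitochondrial UMIs, the altered values were the progenitor over postmitotic ratios 1.30 (E14), 0.93 (E16) and 0.70 (E18), the radial glia ratios -0.66 (E18 over E14) and 0.11 (E18 over E16), the intermediate progenitor ratios -1.34 (E16 over E14), -0.998 (E18 over E14) and 0.34 (E18 over E16, reversed), the newborn neuron ratio -0.25 (E18 over E14) and the S-high over low ratio 1.33 (E14). With at least 500 genes and at most 20% mitochondrial UMIs, the altered values were the progenitor over postmitotic ratios 1.16 (E16) and 0.80 (E18), the radial glia ratios -0.50 (E16 over E14), -0.72 (E18 over E14) and -0.22 (E18 over E16, reversed), the intermediate progenitor ratios -0.013 (E16 over E14), -0.35 (E18 over E14) and -0.34 (E18 over E16), the newborn neuron ratio -0.25 (E18 over E14) and the S-high over low ratio 0.89 (E18). With doublets kept, the altered values were the progenitor over postmitotic ratios 1.21 (E14), 0.84 (E16) and 0.82 (E18), the radial glia ratios -0.74 (E16 over E14) and -0.70 (E18 over E14), the intermediate progenitor ratios -0.0068 (E16 over E14) and -0.21 (E18 over E16) and the newborn neuron ratio -0.22 (E18 over E14). With 2 times the doublet rate, the altered values were the progenitor over postmitotic ratio 1.24 (E14), the radial glia ratios -0.76 (E16 over E14), -0.71 (E18 over E14) and 0.048 (E18 over E16), the intermediate progenitor ratios -0.18 (E18 over E14) and -0.12 (E18 over E16) and the newborn neuron ratio -0.41 (E18 over E14). At clustering resolution 0.5, the altered values were the progenitor over postmitotic ratio 0.83 (E18), the radial glia ratios -0.80 (E16 over E14) and 0.056 (E18 over E16), the intermediate progenitor ratios -0.29 (E18 over E14) and -0.25 (E18 over E16) and the newborn neuron ratio -0.49 (E18 over E14). At clustering resolution 2, the altered values were the progenitor over postmitotic ratios 1.12 (E16) and 0.67 (E18), the radial glia ratios -0.70 (E16 over E14), -0.70 (E18 over E14) and -0.0038 (E18 over E16, reversed), the intermediate progenitor ratios -0.43 (E18 over E14) and -0.38 (E18 over E16), the newborn neuron ratio -0.070 (E18 over E14) and the S-high over low ratio 0.68 (E18). With members and cell cycle genes allowed among the clustering genes, the altered values were the progenitor over postmitotic ratios 0.93 (E16) and 0.78 (E18), the intermediate progenitor ratios -0.083 (E16 over E14) and -0.15 (E18 over E16), the newborn neuron ratio -0.25 (E18 over E14) and the S-high over low ratio 0.99 (E18). Without Hist3h2ba, the altered values were the progenitor over postmitotic ratios 3.18 (E14), 2.47 (E16) and 2.65 (E18), the radial glia ratios -0.80 (E18 over E14) and -0.011 (E18 over E16, reversed), the intermediate progenitor ratios -0.013 (E16 over E14) and -0.24 (E18 over E16), the newborn neuron ratio -0.41 (E18 over E14) and the S-high over low ratios 1.87 (E14) and 1.44 (E18). With H1f10 added, a setting chosen after seeing the data, the altered values were the progenitor over postmitotic ratios 1.31 (E14), 0.96 (E16) and 1.13 (E18), the radial glia ratios -0.75 (E16 over E14), -0.66 (E18 over E14) and 0.087 (E18 over E16), the intermediate progenitor ratio -0.15 (E18 over E16) and the S-high over low ratios 1.33 (E14) and 0.98 (E18). With a marker gate and no clustering the progenitor over postmitotic ratios were 1.18, 0.71 and 0.88, and no member was called lower. The S-high over low ratio of E14 was 1.33 with a minimum of 3 UMIs, 1.63 with 6, and 1.56 with cells thinned to 4000 UMIs and a minimum of 8. With the 10-gene S phase list these ratios were 0.12, 0.74 and 0.24 in the 3 libraries with a minimum of 2 UMIs and 0.13, 0.85 and 0.37 with 4, the latter added after seeing the data. The E16 ratio could not be given with the stricter and looser cell filters, at resolution 2 and at 4000 UMIs, where fewer than 10 low cells were left. Of counts, 22 members were called higher in progenitors at a minimum of 20 CPM, where fewer genes were tested. Leaving out each library in turn, also chosen after seeing the data, gave 33 to 35 called higher and 1 to 2 lower. In radial glia the 13 lower in E16 than in E14 became 7 with the looser cell filter, which also called 2 members higher in E18 than in E16, and the 10 lower in E18 than in E14 became 6 with the stricter one. Beside what follows from how a setting is built, the cause of these shifts was not tested. Progenitor over postmitotic ratios were above 0 in every setting run, and E16 and E18 stayed below E14 in radial glia in every setting run. Ratios of newborn neurons with E16 could not be given, since it held 1 such cell. No paired analysis was possible because each label has 1 library. Depth limits the members under 5 CPM and the 15 low cells of E16.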
